A study of Homo sapiens with 21 samples.

Results

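Flag-tagged estrogen receptor beta (ER-beta) was mapped by chromatin immunoprecipitation and sequencing around 9 other nuclear receptor genes: the steroid receptor genes NR3C1, NR3C2 and PGR, the COUP-TF family genes NR2F1, NR2F2 and NR2F6, and the NR4A genes NR4A1, NR4A2 and NR4A3. A region belonged to a gene when its summit, the base of highest enrichment, lay within 50 kb of the gene body in GENCODE. By this rule 25 of 26861 estradiol regions, 11 of 10045 LY500307 regions and 4 of 2905 ethanol regions were taken, 40 of 39811 in all. The genes were chosen by name and not by a measured value, but with earlier results of these data known.

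The cells were MDA-MB-231-ER-beta, a derivative of the triple-negative breast cancer line MDA-MB-231 that makes ER-beta when doxycycline is added. All groups had doxycycline (100 ng/ml, 24 h in the sample titles) in charcoal-stripped serum, so the receptor was induced in the ethanol cells too. Estradiol was given at 1 nM for 3 h. LY500307, an agonist selective for ER-beta, was given for 3 h, at 10 nM by the sample characteristics and at 1 nM by the titles, so its dose is uncertain. Ethanol was the vehicle. Each treatment had 4 ChIP libraries, precipitated with a Flag antibody, and 3 input libraries, although the protocol speaks of triplicates. The receptor came from a transgene, and the labels do not say whether the line is a single clone.

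There was 1 list of regions per treatment, read as a pool of its ChIP libraries. Without replicate lists, the values carry no error between replicates, and neither treatments nor gene sets were tested against each other. The fold (ChIP signal over the local background, at the summit) and the -log10 q were taken from the authors' lists. As each pool was scaled by itself, folds listed together for a site are not a measure of change. Read totals were not analysed here, so the depth is unknown. A site missing from a list had no enrichment past the authors' threshold, which is not evidence of an unbound site. The lowest -log10 q was 2.15 in the estradiol, 2.11 in the LY500307 and 2.02 in the ethanol list. Intervals on shares are 95% Wilson intervals and cover counting error only, and regions near the same gene are not independent. Positions are hg38, counted from 1.

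Nuclear receptors are transcription factors that share a zinc-finger DNA-binding domain and, in most, a pocket for a small lipid ligand. Steroid receptors bind palindromes as dimers after hormone enters the cell, and ER-beta does so at the estrogen response element (ERE). COUP-TFs act without a known physiological ligand, mostly as repressors, and prefer direct repeats of the AGGTCA element. NR4A receptors are immediate early genes with a filled ligand pocket, and bind a single AGGTCA extended at its start. PGR is a classical target of ER-alpha in luminal breast cells, and MDA-MB-231 cells are of the class that lacks ER-alpha and the progesterone receptor.

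The sequences below are those of the strongest estradiol region of each gene group and of other member regions at PGR, NR3C1 and NR2F2. Not every member region with an ERE is shown. They were read from hg38 on the plus strand, and the capitals mark the 13 bases that come closest to the ERE consensus GGTCANNNTGACC within 100 bases on each side of the summit.
PGR, 29.7 kb past the gene end, chr11:100999923-100999983: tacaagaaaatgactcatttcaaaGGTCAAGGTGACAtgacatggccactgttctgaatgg
PGR, intron 3, chr11:101078583-101078643: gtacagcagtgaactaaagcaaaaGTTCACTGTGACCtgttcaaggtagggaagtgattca
NR3C1, intron 2, chr5:143350932-143350992: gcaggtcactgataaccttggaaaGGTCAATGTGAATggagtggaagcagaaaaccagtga
NR2F2, 32.7 kb past the gene end, chr15:96372904-96372964: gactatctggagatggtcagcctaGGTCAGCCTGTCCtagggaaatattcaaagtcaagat
NR2F6, intron 1, chr19:17244837-17244897: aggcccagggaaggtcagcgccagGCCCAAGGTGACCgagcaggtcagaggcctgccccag
NR4A3, 1.93 kb upstream, chr9:99819903-99819963: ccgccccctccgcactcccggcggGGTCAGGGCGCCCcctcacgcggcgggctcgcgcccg
Counted from 1 at the first base of the element, with the consensus base first, the PGR site past the gene end differs from the consensus by C13A, the PGR intron site by G2T, the NR3C1 site by C12A and C13T, the NR2F2 site by A11T, the NR2F6 site by G2C and T3C, and the NR4A3 site by T9C and A11C.

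Across the 9 genes, 7 had an estradiol region, 7 had an LY500307 region and 3 had an ethanol region. Among all 20007 protein-coding genes, 74.5% had an estradiol summit, 49.2% an LY500307 summit and 22.8% an ethanol summit within the same distance. The member shares were 77.8% (45.3 to 93.7) with estradiol, 77.8% (45.3 to 93.7) with LY500307 and 33.3% (12.1 to 64.6) with ethanol, and each interval contains the share over all genes. NR2F6 and NR4A3 were found in all 3 lists at the same site, and PGR was in all 3 lists at different sites; 20.5% of all protein-coding genes had a summit of every list. NR3C2 had no region in any list.

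**Figure D1:**
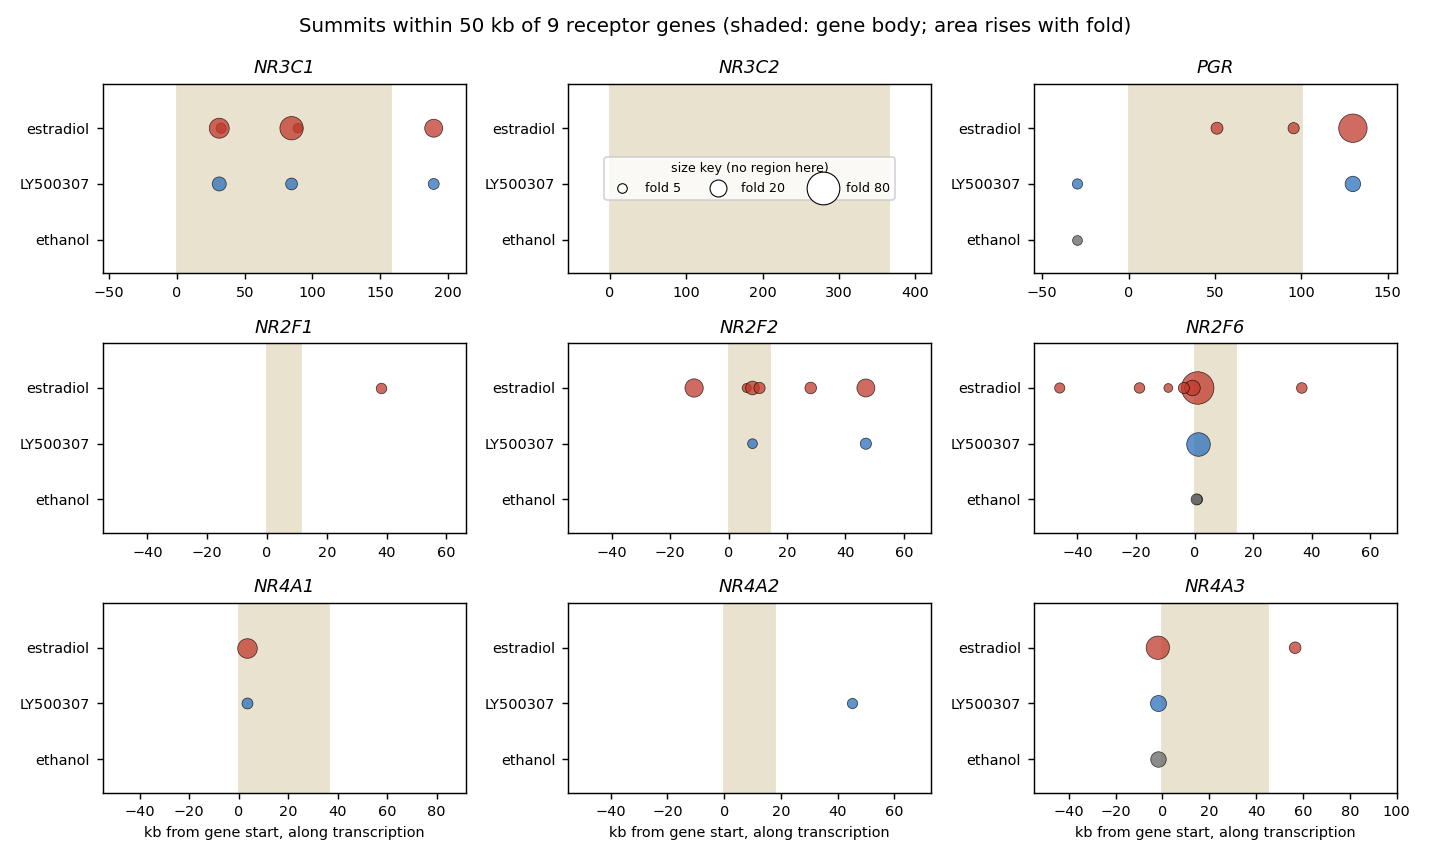
Position of each summit in kb from the gene start, along the direction of transcription, in 9 panels with 1 row per list; the shaded band is the gene body and the area of a point rises with its fold. Estradiol points are most numerous at NR2F2 (6) and NR2F6 (7), and the NR3C2 panel holds only the size key.

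The overlapping regions of the 3 lists formed 27 separate sites. Of these, 16 were in the estradiol list alone, 7 were in the estradiol and LY500307 lists, 2 were in all 3 lists, 1 was shared by LY500307 and ethanol alone, and 1 was in the LY500307 list alone. None was in the ethanol list alone. The steroid receptor genes had 4 sites with estradiol alone and 4 shared by estradiol and LY500307. The NR2F genes had 11 with estradiol alone and 3 shared by estradiol and LY500307, of which 1 also had ethanol. The NR4A genes had 1 with estradiol alone and 2 shared by estradiol and LY500307, of which 1 also had ethanol. At the 10 sites found in more than 1 list the summits lay 3 to 353 bp apart, with a median of 10.5 bp, and 8 of the 10 had all their summits within 50 bp.

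**Figure D2:**
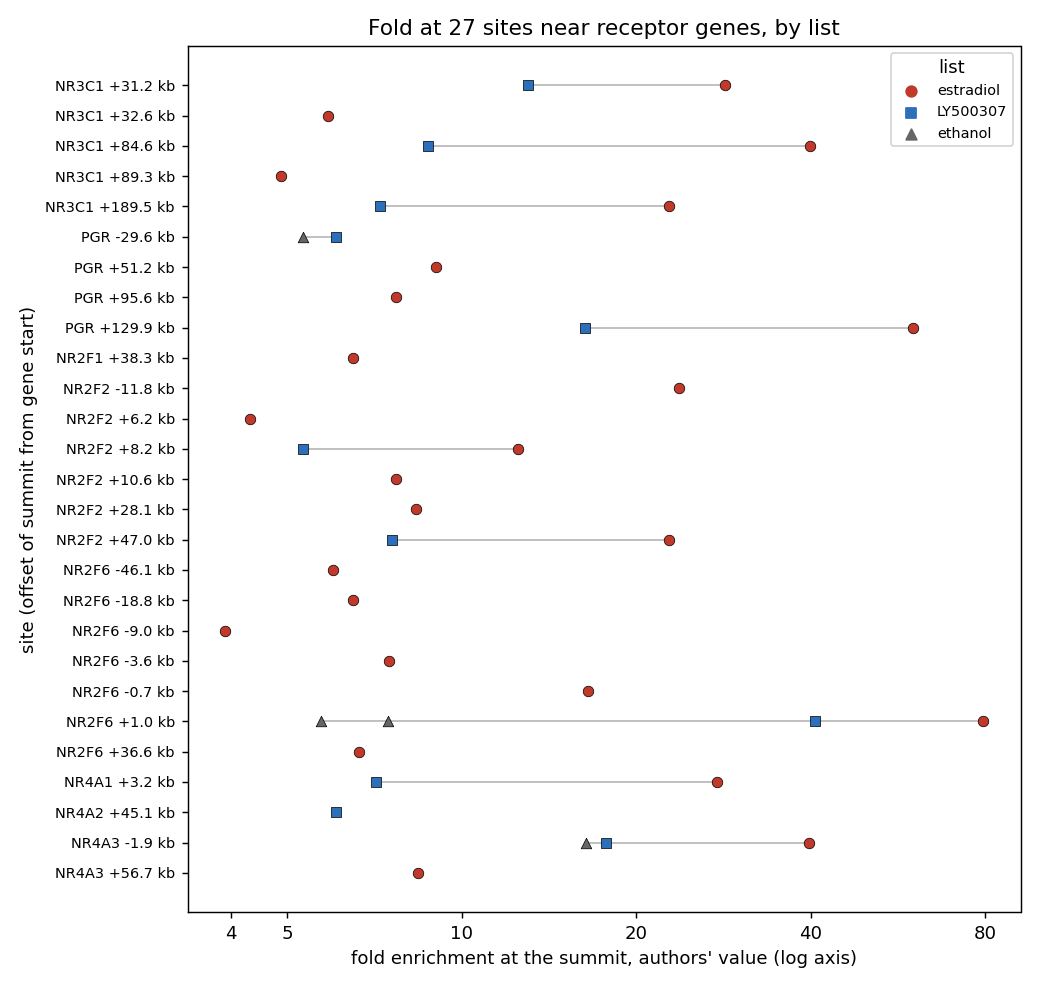
Fold enrichment at the summit (authors' value, log axis) at each of the 27 sites, named by gene and offset from the gene start; circles are estradiol, squares LY500307 and triangles ethanol, and a line joins values of the same site. The estradiol value lies to the right at all 9 sites found with estradiol and LY500307, though the pools were scaled separately.

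NR3C1 encodes the glucocorticoid receptor and had 5 estradiol regions, 3 LY500307 regions and no ethanol region. The gene spans chr5:143277931-143435512 on the minus strand, 158 kb. Its strongest region lay in intron 2 of the canonical transcript (chr5:143350740-143351129), 49.9 kb from its nearest transcription start site (TSS). In the estradiol list its fold was 39.8, rank 3047 of 26861; in the LY500307 list it was 8.73, rank 4891 of 10045. The next lay at the cluster of alternative first exons, 0.182 kb from a TSS (chr5:143403770-143404507). Here estradiol gave a fold of 28.4 and LY500307 one of 13.0. These are the promoters from which NR3C1 is broadly expressed. An intergenic region 31.9 kb past the gene end (chr5:143245797-143246189) reached 22.8-fold in the estradiol list and 7.21-fold in the LY500307 list; its nearest protein-coding TSS, at 38.8 kb, was that of ARHGAP26.

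The other estradiol regions at NR3C1, in intron 2 (fold 4.88) and near a first exon (fold 5.88), were weak and in no other list. The 3 NR3C1 sites with LY500307 were thus the 3 strongest of the 5 with estradiol. The ethanol region closest to the gene lay 104 kb away.

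PGR encodes the progesterone receptor, and its strongest ER-beta site lay beyond the 3' end of the gene. The gene spans chr11:101029624-101129813 on the minus strand. The intergenic site chr11:100999688-101000164, 29.7 kb past the gene end and 129.9 kb from the gene start, had an estradiol fold of 59.9, rank 1755 of 26861, and an LY500307 fold of 16.3, rank 2309 of 10045. It held the ERE GGTCAAGGTGACA shown above, an AP-1 element (TGACTCA) and the NR4A element AAAGGTCA, whose last 5 bases are the first 5 of the ERE. The nearest protein-coding TSS, at 7.84 kb, was that of ARHGAP42.

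The PGR promoter itself had no region in any list. Estradiol regions in the 3' UTR (chr11:101034072-101034349, fold 7.71) and in intron 3 (chr11:101078496-101078785, fold 9.03) were in no other list. All 3 estradiol regions of PGR held an ERE, GGTCAGCATGACA in the 3' UTR and GTTCACTGTGACC in intron 3. A site 29.6 kb upstream of PGR, within the antisense transcript PGR-AS1, was in the LY500307 list (chr11:101159257-101159499, fold 6.06) and in the ethanol list (chr11:101159300-101159499, fold 5.32) but not in the estradiol list. Its best match to the ERE had 4 mismatches. Ranks of 7858 of 10045 and 2353 of 2905 place it low in these lists.

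NR3C2, the mineralocorticoid receptor gene, is the longest of the 9 (366 kb, chr4:148078762-148444698) and was the member without any region in its window. The nearest estradiol summit lay 70.7 kb from the gene body with a fold of 8.93, the nearest LY500307 summit 71.4 kb away with a fold of 8.44, and the nearest ethanol summit 2142 kb away. Of the 613 protein-coding genes at least as long, 24% had no summit of any list in the window, against 24.4% of all protein-coding genes. An empty window was as frequent among genes of this length as among all genes.

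NR2F6 carried the strongest region of all 9 genes. It encodes EAR2, a COUP-TF-related repressor, and spans chr19:17231883-17245919 on the minus strand. In intron 1, 1.05 kb from the gene start and 0.366 kb from an alternative TSS, the estradiol region chr19:17244609-17245629 had a fold of 79.1, rank 1067 of 26861. The LY500307 region chr19:17244496-17245500 had a fold of 40.7, rank 581 of 10045. Both regions were over 1 kb wide, at 1021 and 1005 bp, against medians of 330 and 302 bp over the estradiol and LY500307 lists.

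With ethanol, the same interval of NR2F6 held 2 narrower regions. Their folds were 5.72 (chr19:17244772-17245002, intron 1) and 7.45 (chr19:17245142-17245346, 5' UTR), at ranks 2125 and 1305 of 2905. The first had its summit in the sequence shown above with GCCCAAGGTGACC. The summit of the second lay 353 bp from the estradiol summit and 11 bp from the centre of an ERE with 1 mismatch, GGTCACCATGGCC. An unnamed protein-coding gene (ENSG00000269095) also spans this interval, so the region cannot be assigned to NR2F6 by position alone.

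The other 6 estradiol regions near NR2F6 were in no other list. The strongest of them lay 0.715 kb upstream of NR2F6 (chr19:17246450-17246824, fold 16.5). The next, 3.65 kb upstream of NR2F6 in the 3' UTR of USHBP1, had a fold of 7.50, rank 17193 of 26861 (chr19:17249488-17249698), and NR2F6 had the nearest protein-coding TSS. The rest had folds of 3.91 to 6.65 and lay at neighbouring genes: in intron 35 of MYO9B, an unconventional myosin gene, in an intron and the promoter of USHBP1, and in the promoter of MRPL34, a mitochondrial ribosomal protein gene. The only intact ERE of the member regions, GGTCACTCTGACC at chr19:17264730-17264742, lay 18.8 kb upstream of NR2F6. Its summit was 0.009 kb from a TSS of USHBP1 and 3 bp from the centre of the ERE. The fold there was 6.50, rank 20065 of 26861. An intact palindrome thus stood under a region in the weaker part of the list.

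NR2F2 encodes COUP-TFII, a repressor and activator in vascular, heart and reproductive tissue, and had 6 estradiol, 2 LY500307 and no ethanol regions. The gene spans chr15:96325938-96340263 on the plus strand. The strongest estradiol region (chr15:96313877-96314253, fold 23.7) lay 11.8 kb upstream of the gene start, within NR2F2-AS1. It was in no LY500307 region, and it was the 1 of 9 member regions with an estradiol fold over 20 of which this was true. The next (chr15:96372733-96373106), 32.7 kb past the gene end, held the ERE GGTCAGCCTGTCC and had an estradiol fold of 22.8 and an LY500307 fold of 7.59. A region in an exon of NR2F2 (chr15:96333896-96334343) lay 0.929 kb from a TSS. Its estradiol summit fell in a 5' UTR and its LY500307 summit in a coding exon. The estradiol fold was 12.5 and the LY500307 fold was 5.32, rank 8794 of 10045. The other 3 had estradiol folds of 4.31, 7.70 and 8.33.

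NR2F1, which encodes COUP-TFI, had 1 region, with estradiol alone. It lay 26.9 kb past the end of NR2F1 in intron 10 of FAM172A (chr5:93621346-93621668), with a fold of 6.50 and a GC content of 75.6%. Its best ERE match had 4 mismatches. The nearest LY500307 and ethanol summits were 1024 kb and 1561 kb from the gene. The 3 NR2F genes, alike in protein family and in gene length (11.4 to 14.3 kb), thus had 1, 6 and 7 estradiol regions, for NR2F1, NR2F2 and NR2F6 in that order.

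NR4A3 encodes NOR1 and had the region that ranked highest in the ethanol list. The site lay 1.93 kb upstream of the gene start (chr9:99821855-99866891, plus strand), within the long non-coding transcript STX17-DT. The estradiol region chr9:99819573-99820141 had a fold of 39.7, rank 3068 of 26861. The LY500307 region chr9:99819699-99820109 had a fold of 17.7, rank 2074 of 10045. The ethanol region chr9:99819723-99820098 had a fold of 16.4, rank 303 of 2905, so 10.5% of the ethanol list was at or above it. It was GC-rich (74.1% around the summit) and its best ERE match, GGTCAGGGCGCCC, had 2 mismatches, while SP1 elements (GGGCGG, on the minus strand) stood at 2 positions. An estradiol region 11.6 kb past the gene end (chr9:99878411-99878678) had a fold of 8.40, rank 15390 of 26861, and was in no other list. This region also lay within STX17-DT, and its nearest protein-coding TSS, at 28.1 kb, was that of STX17, a syntaxin gene.

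NR4A1, which encodes Nur77, had 1 site. It lay in an intron, 3.19 kb from the upstream gene start and 25.4 kb upstream of the canonical start (chr12:52025859-52026189; gene chr12:52022832-52059507). Its estradiol fold was 27.5, rank 4696 of 26861, its LY500307 fold was 7.12, rank 6323 of 10045, and the summits lay 5 bp apart. There was no ethanol region within 88.1 kb of the gene, and no ERE within 2 mismatches at this summit.

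NR4A2, which encodes Nurr1 and has a known role in dopamine neurons, had a single weak region with LY500307 and none with estradiol. The region chr2:156297073-156297309, 27.2 kb past the end of the gene (chr2:156324437-156342348, minus strand), had a fold of 6.07, rank 7735 of 10045, a GC content of 27.9% and no ERE within 3 mismatches. Genes with an LY500307 summit but no estradiol summit in the window numbered 185 of all 20007 protein-coding genes (0.925%). Only 9839 of the 20007 had an LY500307 summit at all. The next nearest LY500307 summit, and the nearest with estradiol and ethanol, lay 195 kb from NR4A2 and closest to the TSS of GPD2. The estradiol, LY500307 and ethanol folds of that distant site were 59.5, 29.0 and 13.1.

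Sharing between lists near the receptor genes is set beside that of the lists as a whole. Of the 25 estradiol regions, 9 overlapped an LY500307 region (36.0%, 20.2 to 55.5), against 33.8% of all estradiol regions, and 2 overlapped an ethanol region (8.0%, 2.22 to 25.0), against 9.26%. Of the 11 LY500307 regions, 9 overlapped an estradiol region (81.8%, 52.3 to 94.9), against 91.9%. Of the 4 ethanol regions, 3 overlapped an estradiol region and all 4 an LY500307 region, against 87.0% and 79.8% of the ethanol list. The intervals of the estradiol and LY500307 shares contain the values of the whole lists.

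Member regions shared by estradiol and LY500307 were mostly those of high estradiol fold. The 9 estradiol regions also found with LY500307 had folds of 12.5 to 79.1, and the 16 others had folds of 3.91 to 23.7. None of the 14 estradiol regions with a fold under 10 was shared with LY500307, against 9.98% of all estradiol regions in this range. Of the 9 with a fold of 20 or more, 8 were, against 90.2%. Of the 2 between these limits, 1 was, against 28.3%. The median estradiol fold of the 25 was 8.40, against 9.50 over the list. The LY500307 median was 7.59 against 8.46 and the ethanol median was 6.58 against 7.0. The median GC content around the summit was 57.2% at the estradiol and 57.2% at the LY500307 member regions, against 54.7% and 54.2% over the lists. At the 4 ethanol member regions it was 71.9%, against 57.7% over the list. These 4 values were 36.3% at PGR, 69.7% and 81.1% at the same NR2F6 site, and 74.1% at NR4A3.

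**Figure D3:**
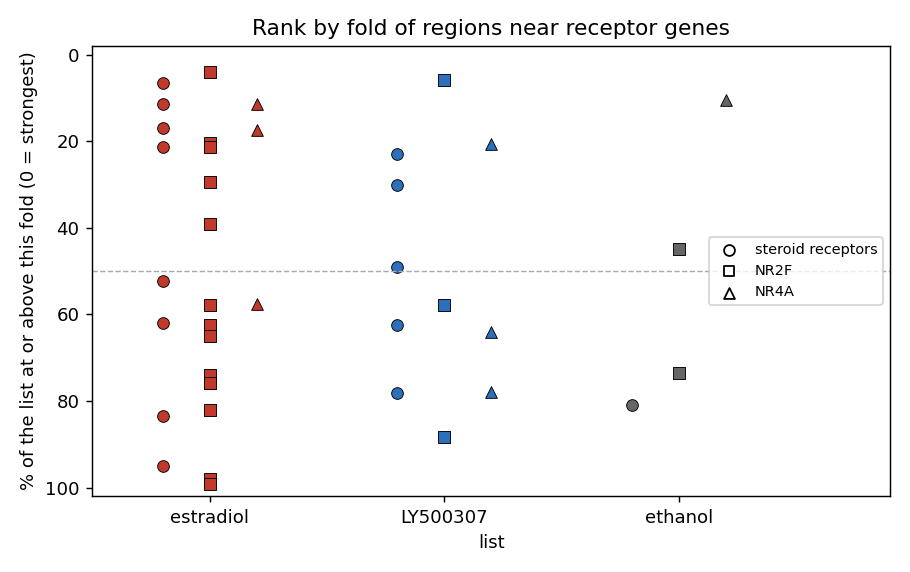
Rank by fold of each member region within its own list, as the percentage of the list at or above its fold (0 is the strongest; the dashed line marks 50%); circles are steroid receptor genes, squares NR2F and triangles NR4A genes. Member regions spread from 3.98% to 99.2% of the estradiol list, and the highest ethanol point, at 10.5%, is NR4A3.

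An ERE with at most 1 mismatch was present at 6 of the 25 estradiol summits (24%, 11.5 to 43.4), against 13.8% of all estradiol summits. With LY500307 it was at 2 of 11, against 15.7% of the list, and with ethanol at 1 of 4, against 15.0%. The 6 estradiol regions comprised 3 at PGR, 1 at NR2F2 and 2 in the window of NR2F6; NR3C1 and the NR4A genes had none. Their folds ran from 6.50 to 59.9, and those of the 19 regions without an ERE from 3.91 to 79.1. The median fold was 8.37 with an ERE and 8.40 without it, against 14.5 and 8.98 over all estradiol regions. In windows 2000 bp downstream of all estradiol summits an ERE was at 0.644%.

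Elements of the other receptor families were sought on both strands of the same windows. The NR4A element AAAGGTCA was at 3 of the 25 estradiol summits, in NR3C1 intron 2, past the end of PGR and in NR2F2 intron 2, against 2.94% of all estradiol summits. It contains the AGGTCA element that ER-beta also binds, which was at 11 of 25 against 44.7%. The direct repeat AGGTCANAGGTCA, a COUP-TF element, with at most 2 mismatches, was at 2 of 25 against 5.55%. The palindrome GNACANNNTGTNC, bound by the glucocorticoid, mineralocorticoid and progesterone receptors, was at none of the 25 against 0.663% of all estradiol summits. AP-1 elements (TGANTCA) were at 5 of 25 against 17.5%, and SP1 elements (GGGCGG) at 6 of 25 against 20.8%. The TEAD element GGAATG was at 3 of 25 against 16.3%. The element AGATAA of the GATA factors was at 3 of 25 against 8.23%, and the FOXA element TGTTTAC was at none, against 1.67%. A match describes the letters in the window and does not show what bound there.

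The density of regions is given per family and then per gene, since the genes of a family differed. Regions per Mb of window were 41.2 at the NR2F genes, 8.66 at the steroid receptor genes and 7.51 at the NR4A genes with estradiol, against 8.70 over the chromosomes. With LY500307 the values were 8.83, 5.41 and 7.51 in the same order, against 3.25. With ethanol they were 5.89, 1.08 and 2.50, against 0.941. The NR2F and NR4A genes had 3 LY500307 regions each, so their values with LY500307 differ by the size of the windows (0.340 and 0.400 Mb), and the NR2F value with ethanol rests on 2 regions at the same NR2F6 site. Gene by gene with estradiol, NR2F6 had 61.4 and NR2F2 had 52.5 regions per Mb, while NR2F1 had 8.98, below NR3C1 (19.4), PGR (15.0) and NR4A3 (13.8). The NR2F6 value, and through it the NR2F value of 41.2, includes regions nearest to a TSS of MYO9B, USHBP1 or MRPL34. With LY500307, NR2F2 had 17.5, NR3C1 11.6, PGR 9.99 and NR2F6 8.77, and NR2F1 had none. By the number of estradiol regions, NR2F6 stood where 11.7% of protein-coding genes had at least as many, NR2F2 at 16.3%, NR3C1 at 22.6%, PGR at 42.6%, NR4A3 at 57.3%, and NR2F1 and NR4A1 at 74.5%; NR3C2 and NR4A2 had none. The chromosome values include stretches far from genes, so they are no background for windows centred on genes.

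**Figure D4:**
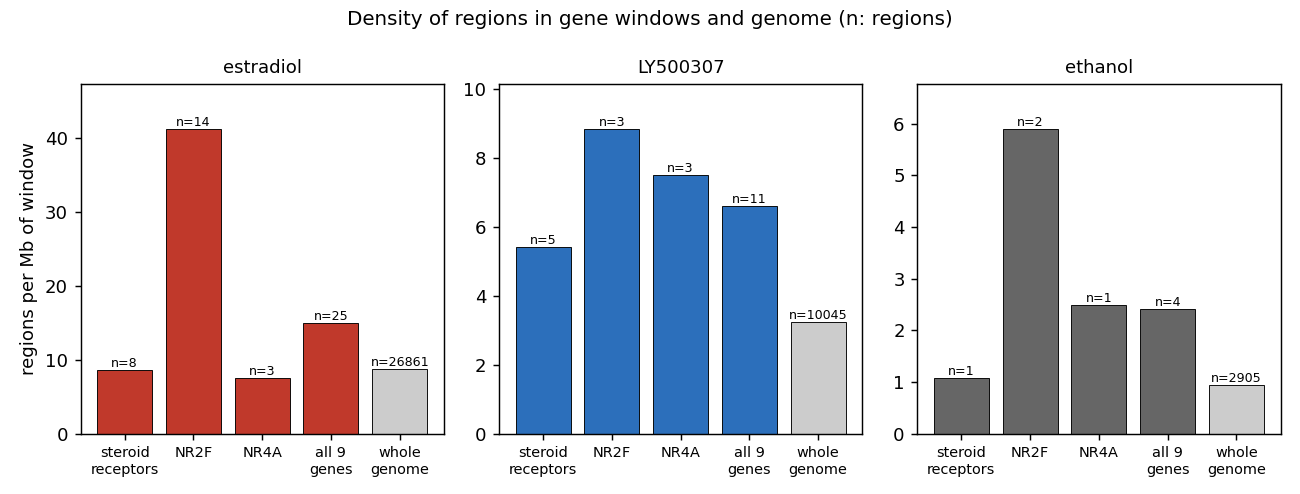
Regions per Mb in the 50 kb windows of the steroid receptor, NR2F and NR4A genes, of all 9 genes, and over chromosomes 1 to 22, X and Y (grey), in 1 panel per list; n is the number of regions behind each bar. The NR2F bars rest on 14, 3 and 2 regions and differ between genes: NR2F1 adds 1 estradiol region only, and both ethanol regions are at NR2F6. Some of the NR2F6 estradiol regions lay nearest to a TSS of another gene.

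Some of the regions lay closer to another gene. The nearest protein-coding TSS was that of the receptor gene itself for 17 of 25 estradiol regions, 9 of 11 LY500307 regions and 4 of 4 ethanol regions. Of the 25 estradiol summits, 7 lay in a promoter of a protein-coding gene (starting 1000 bp before a TSS and ending 100 bp after it). Of the rest, 8 lay in introns, 7 in intergenic DNA, 2 in a 3' UTR and 1 in a 5' UTR. Intergenic here means outside protein-coding transcripts, and it includes summits within long non-coding transcripts such as NR2F2-AS1 and STX17-DT. The 50 kb limit divided NR2F6: a region of MRPL34 46.1 kb upstream counted, with an estradiol fold of 6.0. Regions of fold 26.4 in the estradiol list, 50.5 kb away, and of fold 9.11 in the LY500307 list, 50.4 kb away, did not. At NR2F1 an estradiol region 50.5 kb away, with a fold of 8.05, also fell just outside.

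Genes around these receptors, from lists chosen by function, were counted in the same way. All 11 genes for chaperones and ligand enzymes of steroid receptors had an estradiol region, 7 an LY500307 region and 6 an ethanol region. FKBP4, FKBP5, HSP90AA1, HSP90AB1 and HSPA8, chaperones or co-chaperones of the receptors, had all 3; the strongest regions near FKBP4 were 141-fold in the estradiol, 77.4-fold in the LY500307 and 25.4-fold in the ethanol list. Of 10 textbook glucocorticoid receptor targets, 10 had an estradiol region, 9 an LY500307 region and 5 an ethanol region. FKBP5, KLF9, MT2A, NFKBIA and PER1 had all 3. The lists overlap: FKBP5 was counted in both of these, and another of the targets is also among the immediate early genes below. Of 17 other steroid and orphan receptor genes the counts were 13, 9 and 3, with NR0B2, NR1D1 and NR2C1 in all 3 lists.

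Of 10 immediate early genes that respond with the NR4A genes, 9 had an estradiol region, 6 an LY500307 region and 3 an ethanol region. ATF3, IER5 and KLF6 had all 3, and IER3 had none. The antisense genes NR2F1-AS1 and NR2F2-AS1 have windows that overlap those of NR2F1 and NR2F2, so they are not separate evidence. With them, of 6 partner and antisense genes of the NR2F family, 4 had an estradiol region, 3 an LY500307 region and 2 an ethanol region. Among them ZFPM1 and ZFPM2, the FOG cofactors that bind COUP-TFII, had all 3, while BCL11A and BCL11B, which encode zinc-finger repressors known as COUP-TF interacting proteins, had none. These counts stand against the 74.5%, 49.2% and 22.8% of all protein-coding genes given above, and nothing particular to a list was tested.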

How the data were processed

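The files were 3 lists of enriched regions, 1 per treatment. DiffBind, MACS2 2.1.1.20160309, Bowtie2 2.2.6 and, as the build, hg38 are listed with no roles in the submitters' processing notes. In the narrowPeak format that the labels name, the deposited fold is a ratio of ChIP signal to local background, and the deposited -log10 q is that of the authors' peak caller. The deposited summit offset (another value, in bases from the region start) gave the summit. No region ran past the end of its hg38 chromosome. Of the records, those on chromosomes 1 to 22, X or Y were used, 26861 of 26896 with estradiol, 10045 of 10059 with LY500307 and 2905 of 2911 with ethanol. The 9 genes and all gene lists were chosen with earlier results of these data known.

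Genes and TSSs came from GENCODE 44. A region counted as shared if a region of another list covered 1 bp of it or more. Ranks follow fold. An ERE could have 1 mismatch among its 10 fixed bases. The scripts used Python 3.11.15, numpy 2.4.6, pandas 2.3.3, scipy 1.17.1, pysam 0.24.0 and matplotlib 3.10.9, and window, overlap and motif steps were tested on simulated data. Regions given in full were, per gene, the 3 estradiol regions of highest fold, every ethanol region, the LY500307 region of highest fold and every region of these 2 lists without an estradiol overlap. No test was made, because each treatment had 1 pooled list. Alternatives were other distances, a stricter -log10 q, other definitions of sharing, equal list lengths, and other mismatches and windows for the ERE. Some results for genes of the added lists are not reported here.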

Additional observations from a re-analysis of the deposited data

How the results depend on the processing

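Of 50 alternative values for 15 results, 37 stayed close to the value given, meaning within 1.5 times for a count or within the 95% interval for a share, and 13 did not. The number of member genes with a region was counted at other distances and at a stricter -log10 q. It ran from 6 to 8 of 9 with estradiol, 5 to 8 with LY500307 and 2 to 4 with ethanol. The number of regions followed the distance: within 100 kb it was 50 with estradiol, 22 with LY500307 and 8 with ethanol, and within 20 kb it was 6 with LY500307. In the 2905 strongest regions of each list by -log10 q there were 3 estradiol and 3 LY500307 member regions, beside the 4 of the ethanol list. They lay near PGR, NR2F6 and NR4A3 in every list. At equal list length the lists thus did not differ in which member genes had a region. With at least 50% of each region covered, 25.0% of the ethanol member regions were shared with estradiol. The ERE share depended on the mismatches allowed: without any it was 4.0% with estradiol, 0 with LY500307 and 0 with ethanol, and with at most 2 it was 52.0%, 54.5% and 75%. Over all regions the shares were 1.65%, 1.84% and 2.38% without a mismatch and 44.6%, 46.9% and 39.8% with at most 2, in the same order of lists. No paired analysis was possible because each treatment had 1 pooled list. Depth is unknown, which limits any reading of a site's absence from a list.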
